A study of Gallus gallus with 24 samples.

Results

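C1q is the recognition molecule of the classical complement pathway, a secreted protein assembled from the A, B and C chains that the genes C1QA, C1QB and C1QC encode. These 3 genes were examined out of 12422 measured gene symbols, and they were chosen because their RNA was far lower in heart tissue treated with CN03. RNA was sequenced from microdissected sinoatrial node (SAN, the pacemaker region) and atria of chick embryos at Hamburger Hamilton stage 30, embryonic day 6. In each tissue, 4 pools were cultured for 14 hours with 0.25 ug/ml CN03, an activator of the small GTPase RhoA, 4 pools were cultured for 14 hours with vehicle (water), and 4 pools were taken freshly isolated (t0), giving 24 libraries. A pool held 5 tissue preparations, both cultured groups were kept in medium with 15% fetal bovine serum, and no genetic change was made in any group. Values are the deposited log2 expression values, whose depth in reads is unknown. An SD is the spread over the 4 pools of a group. An SE comes from a fit of group means over all 24 libraries. It rests on a variance per gene that all groups share, so it is not the scatter of only the pools compared.

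In mammals, C1q is made mainly by macrophages and related phagocytes, in contrast to most other complement proteins, which come largely from the liver. The globular heads of C1q bind antibody complexes, bacterial surfaces and dying cells. The bound molecule activates the proteases C1r and C1s, which start the cleavage of C4, C2 and C3, and C1q also tags apoptotic cells and synapses for uptake by phagocytes. Tissue macrophages reach the vertebrate heart during embryonic life. In the GRCg7b assembly of the chicken genome the 3 genes lie side by side on chromosome 21, with C1QB at 6056646 to 6057867, C1QC at 6059953 to 6061614 and C1QA at 6062322 to 6064372.

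The libraries had similar medians, between 4.63 and 4.72 on the log2 scale, but their summed linear values differed between groups. These sums ran from 1201556 to 1282049 in CN03-treated atria. In the other groups they ran from 859652, in a vehicle-treated SAN pool, to 1035953, in a vehicle-treated atrial pool. Within SAN, the sums of CN03-treated pools (996316 to 1025121) also lay above those of vehicle-treated pools (859652 to 940594) and t0 pools (868688 to 937535). All 6 listed SAN markers were higher in SAN than in atria at t0, among them SHOX2, a transcription factor of pacemaker cells (log2 fold change 6.23, adjusted p = 7.29e-14), and HCN4, the main pacemaker channel (3.47, adjusted p = 2.19e-12). Of 6 measured atrial markers 4 were called lower in SAN (adjusted p under 0.05 with a log2 fold change beyond 1). The atrial hormone gene NPPA was 1 of these (log2 fold change -4.74, adjusted p = 2.22e-13). The other 2 were not called, with a highest value of 0.92, and after quantile normalization 1 was called higher in SAN. Among all genes, 6.86% were called higher and 2.87% lower in SAN at t0. The lowest value of the whole table was -5.87, and it occurred in 22 of the 24 libraries. A value of -5.87 is read here as the bottom of the scale and not as a measured level.

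C1QA, the A chain, was at the bottom of the scale in 1 CN03-treated pool of each tissue. In SAN, the 4 CN03-treated pools had log2 values of -5.87, -2.85, -3.49 and -4.61, the vehicle-treated pools 3.11, 3.23, 3.27 and 2.94, and the t0 pools 2.10, 1.85, 1.81 and 1.80. In atria, the values were -2.67, -4.52, -5.87 and -3.89 with CN03, 0.25, 1.92, 1.89 and 1.53 with vehicle, and -0.33, 0.94, -0.19 and -0.24 at t0. No CN03-treated pool of either tissue reached any vehicle-treated or t0 pool, whereas vehicle-treated and t0 atria overlapped because vehicle pool 1 lay low and t0 pool 2 lay high.

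C1QB, the B chain, was the subunit that stayed above the bottom of the scale in all pools. In SAN, CN03-treated pools had log2 values of -1.02, -1.94, -1.66 and -1.50, vehicle-treated pools 4.75, 4.92, 5.02 and 4.97, and t0 pools 3.06, 2.93, 2.95 and 2.92. In atria, they were -2.78, -0.75, -1.83 and -1.63 with CN03, 2.21, 3.41, 3.41 and 3.12 with vehicle, and 0.66, 1.65, 0.63 and 0.64 at t0. The 3 treatments of a tissue did not overlap in either tissue, and vehicle was the highest of them in both.

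C1QC, the C chain, reached the bottom of the scale most often, in 2 CN03-treated pools of each tissue. In SAN, CN03-treated pools had log2 values of -3.02, -5.28, -5.87 and -5.87, vehicle-treated pools 3.18, 3.14, 3.47 and 3.20, and t0 pools 1.76, 1.47, 1.44 and 1.07. In atria, they were -5.87, -3.30, -5.87 and -4.64 with CN03, -0.52, 2.09, 1.79 and 1.57 with vehicle, and -0.32, 0.29, -1.44 and -1.65 at t0. As for C1QA, CN03-treated pools lay apart from all others, and vehicle pool 1 put the vehicle-treated atria within the range of the t0 atria.

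**Figure D1:**
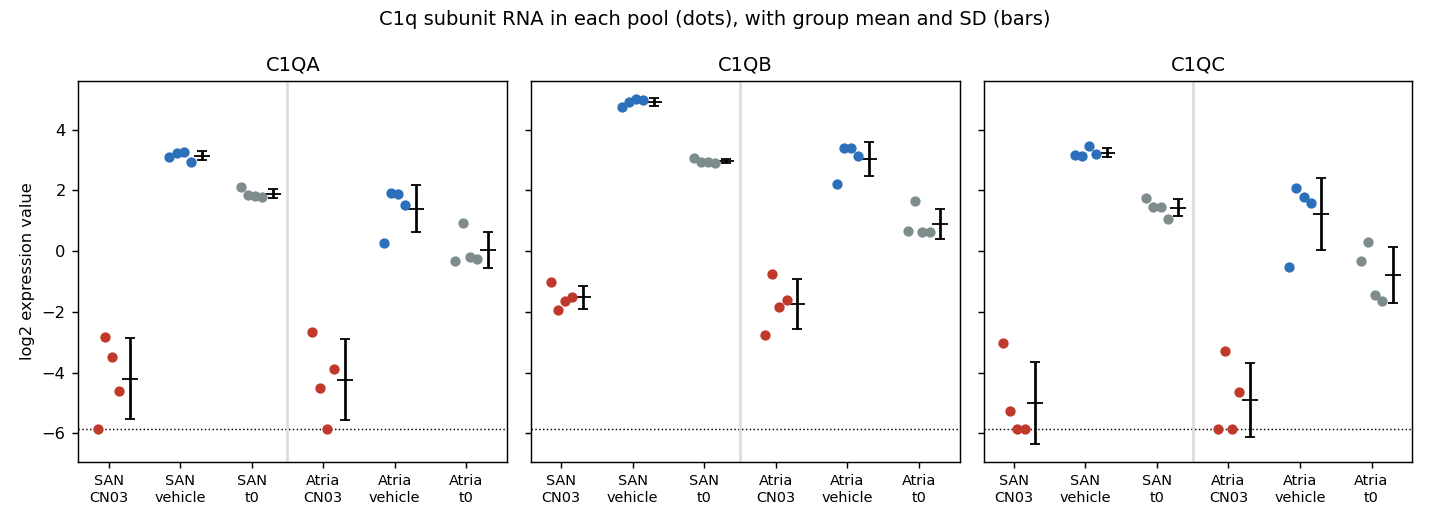
Log2 expression value (vertical axis) of C1QA, C1QB and C1QC in the 4 pools of each group (dots), with group mean and SD (bars), for SAN on the left and atria on the right of each panel. The dotted line is the lowest value of the table, -5.87, where 1 C1QA pool and 2 C1QC pools of each tissue lie among the CN03-treated pools.

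The order of the 6 groups was read from these means. Vehicle-treated SAN was the highest group for each subunit, at 3.14 ± 0.152 for C1QA, 4.92 ± 0.118 for C1QB and 3.25 ± 0.151 for C1QC (log2, SD, n = 4). Freshly isolated SAN and vehicle-treated atria came next and could not be separated by their pools, with a gap of 0.49 for C1QA and 0.20 for C1QC in favour of fresh SAN and of 0.07 for C1QB in favour of vehicle-treated atria. Freshly isolated atria followed, at 0.04 ± 0.600, 0.89 ± 0.504 and -0.78 ± 0.921 for the A, B and C chains (SD, n = 4). The 2 CN03-treated groups were the lowest and overlapped for every subunit, with C1QB at -1.53 ± 0.388 in SAN and -1.75 ± 0.832 in atria (SD, n = 4).

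Because the genes were chosen for their difference between CN03 and vehicle, that difference is described without a test. In SAN, the log2 fold change of CN03 over vehicle was -7.34 (SE 0.570) for C1QA, -6.44 (SE 0.324) for C1QB and -8.25 (SE 0.638) for C1QC, which placed them 3rd, 5th and 2nd from the lowest of 12422 genes. In atria it was -5.64 for C1QA, -4.78 for C1QB and -6.15 for C1QC with the same errors, and the ranks were 16, 40 and 8. For comparison, 17.1% of all genes in SAN and 15.6% in atria were called lower with CN03 and 10.2% and 13.8% higher, a call being an adjusted p under 0.05 with a log2 fold change beyond 1 in the limma fit, and the median gene changed by -0.06 in SAN and -0.01 in atria. Groups without any overlap, lower with CN03, were found for 33.1% of genes in SAN and 33.7% in atria. As tissue was sequenced in bulk, fewer C1q-producing cells and less C1q RNA per cell cannot be told apart.

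On the linear scale, mean C1QB was 0.356 in CN03-treated SAN, against 30.2 in vehicle-treated SAN, a ratio of 84.8 between the means. In atria it was 0.336 with CN03, against 8.65 with vehicle, a ratio of 25.7. For C1QA and C1QC the ratios were 124 and 208 in SAN and 40.6 and 64.8 in atria, but these depend on where the bottom of the scale was set. When 1 was added to the linear values as a pseudocount, the log2 fold changes in SAN were -3.19 for C1QA, -4.53 for C1QB and -3.33 for C1QC, so that C1QB and not C1QC then had the largest. The difference was larger in SAN than in atria by 1.70 (SE 0.806) for C1QA, 1.66 (SE 0.459) for C1QB and 2.10 (SE 0.902) for C1QC on the log2 scale. By arithmetic, these equal the excess of SAN over atria with vehicle (1.74, 1.88 and 2.01) less that with CN03 (0.03, 0.22 and -0.09). They are thus not a separate observation.

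After culture without CN03, mean levels of all 3 subunits were above those of fresh tissue. Vehicle over t0 in SAN gave log2 fold changes of 1.25 (SE 0.570) for C1QA, 1.95 (SE 0.324) for C1QB and 1.81 (SE 0.638) for C1QC, and in atria 1.36, 2.14 and 2.01. These comparisons share the vehicle libraries with the contrast used for the choice and are given without a test. All SAN pools with vehicle lay above all SAN pools at t0 for each subunit, a pattern that 22.3% of all genes showed in SAN. In atria only C1QB separated in this way, where 26.8% of all genes did. Without vehicle pool 1 of atria, the atrial values were 1.74 for C1QA, 2.42 for C1QB and 2.60 for C1QC. For the A, B and C chains, CN03 over t0 gave log2 fold changes of -6.09, -4.49 and -6.44 in SAN and of -4.28, -2.64 and -4.14 in atria. All CN03-treated pools lay below all t0 pools of their tissue, as they did for 35.2% of all genes in SAN and 35.8% in atria.

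The freshly isolated pools are not part of the contrast used for the choice, and the tissues are tested against each other there. This test is not fully free of the choice, which was made with earlier results of these data known. The fall used for the choice was larger in SAN, which can favour genes with a higher level in SAN. The SE and adjusted p below are not free of the choice, since each gene's variance also draws on the CN03 and vehicle pools. For C1QA the SD was 1.33 in CN03-treated SAN, against 0.144 in t0 SAN and 0.600 in t0 atria. The permutation test uses the t0 pools only. With only the 2 t0 groups fitted, none of the 3 calls changed. C1QB was higher in SAN than in atria by 2.07 on the log2 scale (SE 0.324, adjusted p = 2.09e-05), C1QC by 2.21 (SE 0.638, adjusted p = 0.00869) and C1QA by 1.84 (SE 0.570, adjusted p = 0.0138). The 4 SAN pools lay above the 4 atrial pools for every subunit, and the exact two-sided permutation p was 0.0286 for each, the smallest that 4 against 4 pools can give. The 3 p values come from the same pools and are not separate results. The permutation treats these pools as unpaired, although same-numbered t0 pools of SAN and atria deviated together (r 0.112 to 0.496). If they are pairs, this p is too small. Among all genes, 6.86% were called higher in SAN at t0 and 18.1% had SAN pools all above atrial pools. On the linear scale the ratio of means was 3.35 for C1QA, 4.00 for C1QB and 4.04 for C1QC. With a pseudocount of 1 the log2 fold changes were 1.19 for C1QA, 1.61 for C1QB and 1.18 for C1QC, so that C1QC no longer had the largest. Its mean linear value in t0 atria was 0.678, below that pseudocount. The call of C1QA was lost after quantile normalization (log2 fold change 1.37, adjusted p = 0.054), whereas those of C1QB and C1QC were kept, and leaving out any library changed none of the 3 calls. With vehicle, SAN was higher than atria by 1.74 for C1QA, 1.88 for C1QB and 2.01 for C1QC, close to the values at t0, and with CN03 the differences were 0.03, 0.22 and -0.09.

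The subunits were next compared with each other inside each pool. Since the values may not be scaled to transcript length, only the change of a difference between groups is read, not its size. C1QB minus C1QA was 1.78 ± 0.176 on the log2 scale in vehicle-treated SAN and 1.08 ± 0.0829 in t0 SAN, and 1.64 ± 0.217 in vehicle-treated atria and 0.85 ± 0.119 in t0 atria (SD, n = 4). The pools of vehicle and t0 did not overlap in either tissue, ranging from 1.64 to 2.03 and from 0.96 to 1.14 in SAN, and from 1.49 to 1.96 and from 0.71 to 1.00 in atria. For C1QC minus C1QA they did not overlap in SAN (-0.09 to 0.26 against -0.72 to -0.34) but overlapped in atria. How often other pairs of genes separate in this way was not counted, so the lack of overlap is only a description. For C1QB minus C1QC the pools of vehicle and t0 overlapped in both tissues, with means of 1.67 ± 0.126 in vehicle-treated SAN and 1.53 ± 0.229 in t0 SAN, and 1.80 ± 0.627 and 1.67 ± 0.608 in atria (SD, n = 4). With CN03 the differences spread widely, from 0.90 to 4.85 for C1QB minus C1QA in SAN and from -0.11 to 4.04 in atria. The upper end of both ranges came from the pool with C1QA at the bottom of the scale, so this spread is not read further.

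**Figure D2:**
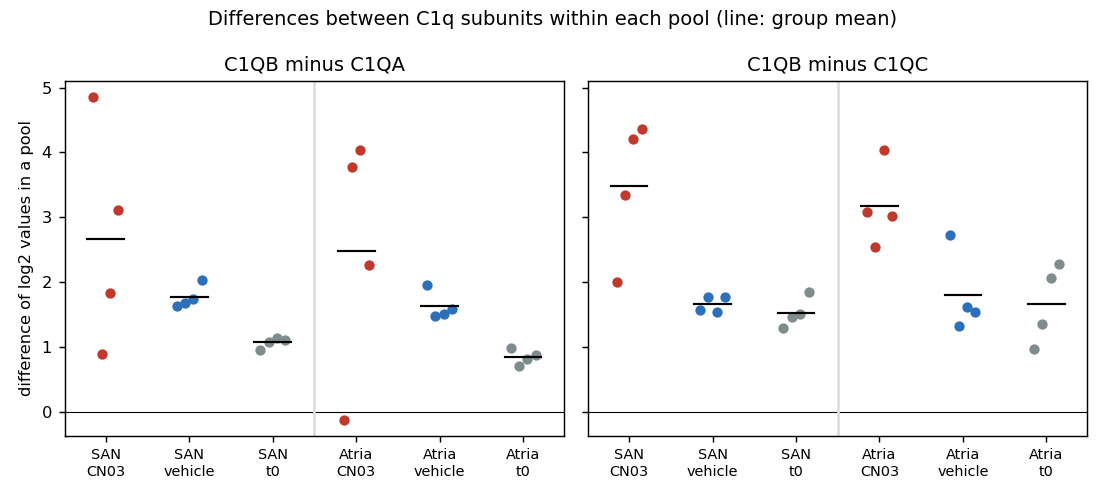
Difference of log2 values between C1QB and C1QA (left) and between C1QB and C1QC (right) within each pool (dots), with group means (lines), for SAN and atria. C1QB minus C1QA of vehicle-treated pools lies above that of t0 pools in both tissues, with means of 1.78 against 1.08 in SAN and 1.64 against 0.85 in atria. How often other pairs of genes do so was not counted.

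Pools of the same group also differed in C1q as a set. Over deviations from group means in the 16 vehicle and t0 libraries, Pearson's r was 0.973 between C1QB and C1QA, 0.880 between C1QC and C1QA and 0.895 between C1QB and C1QC. In those 16 libraries the mean deviation of SAN pools ran only from -0.17 to 0.21, so these r values rest mostly on atrial pools. Including the 8 CN03 libraries, r was -0.126, -0.011 and 0.827. C1QA and C1QC lay between -5.87 and -2.67 there, with pools at the bottom of the scale. A loss of shared variation is therefore not read from these r values. These are descriptions over libraries that share a normalization. In vehicle pool 1 of atria the mean of the subunits was 1.24 below its group, where the mean of the macrophage list was 0.43 below, that of the endothelial list 0.32 below, that of the epicardial and fibroblast list 0.30 below and that of the erythroid and thrombocyte list 0.88 above. In t0 pool 2 of atria the mean of the subunits was 0.91 above its group, with the macrophage list 0.18 above. The epicardial and fibroblast list was 0.21 above there and the erythroid and thrombocyte list 0.17 above. The endothelial list was 0.09 below and the cardiomyocyte list 0.24 below. SHOX2 in that t0 pool was 0.45, the lowest of the t0 atria, against 1.15 to 2.06 in the other 3 pools.

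Neighbouring genes on chromosome 21 changed less, and in both directions. The nearest measured gene before them, EPHB2, an ephrin receptor, had log2 fold changes with CN03 of -0.15 in SAN (adjusted p = 0.467) and 0.00 in atria (adjusted p = 0.998). The nearest after them, EPHA8, another ephrin receptor, fell by 1.09 in SAN (adjusted p = 0.000273) and by 1.25 in atria (adjusted p = 5.51e-05). LACTBL1 rose by 1.61 in SAN (adjusted p = 2.73e-05) and 1.95 in atria (adjusted p = 1.93e-06). None of the 5 measured genes on either side came near the size of change of C1QA, C1QB or C1QC.

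Many other complement genes were lower with CN03. Of 39 listed genes 26 were measured, with a median log2 fold change of -1.06 in SAN and -0.72 in atria. Called lower were 14 (53.8%) in SAN and 9 (34.6%) in atria, beside 17.1% and 15.6% of all genes. Called higher were 2 (7.69%) in SAN and 3 (11.5%) in atria, near the 10.2% and 13.8% of all genes. After quantile normalization 9 were called lower in SAN and 7 in atria, where 1622 and 1665 of all 12422 genes were. In the classical pathway, C1S, the protease that cleaves C4, fell by 1.42 in SAN (SE 0.305, adjusted p = 0.000239) and by 2.18 in atria (adjusted p = 8.82e-07), and C1R, which activates C1s, fell by 1.34 in SAN (adjusted p = 1.17e-09) and by 1.03 in atria (adjusted p = 7.56e-08). C4 fell by 1.29 in SAN (adjusted p = 0.00118). C3, the central component, had a log2 fold change of -0.85 in SAN (adjusted p = 0.0333) and fell by 2.01 in atria (adjusted p = 1.84e-05). Its adjusted p in SAN passed 0.05 when CN03 pool 2 (log2 fold change then -0.56) or vehicle pool 1, 2 or 3 was left out, and after quantile normalization C3 in SAN had -0.33 (adjusted p = 0.375).

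Components outside the classical pathway moved in both directions. CFD, the protease that activates the alternative pathway, fell by 2.73 in SAN (adjusted p = 1.52e-10) and by 3.37 in atria (adjusted p = 2.63e-12), and FCN2, a ficolin of the lectin pathway, fell by 1.83 (adjusted p = 7.19e-06) and by 2.69 (adjusted p = 2.04e-08) in the same tissues. COLEC10, a collectin, rose by 1.69 in SAN (adjusted p = 1.64e-09) and 1.88 in atria (adjusted p = 2.07e-10). C7, which joins the membrane attack complex, fell by 3.17 in SAN (adjusted p = 1.74e-10) and by 4.49 in atria (adjusted p = 2.53e-13), close to the -4.78 of C1QB in atria. With a pseudocount of 1, C7 had -3.11 in SAN and -4.25 in atria, where it was beyond the -1.80, -2.80 and -1.77 of C1QA, C1QB and C1QC in atria. Of the regulators, CD55, which breaks up C3 convertases on host cells, rose by 2.50 in SAN (adjusted p = 3.26e-10) and 4.18 in atria (adjusted p = 2.78e-14). At t0, 8 of the 26 (30.8%) were called higher in SAN than in atria, beside 6.86% of all genes. The count was 4 after quantile normalization, where 596 of all 12422 genes were called higher, and 3 with a pseudocount of 1.

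**Figure D3:**
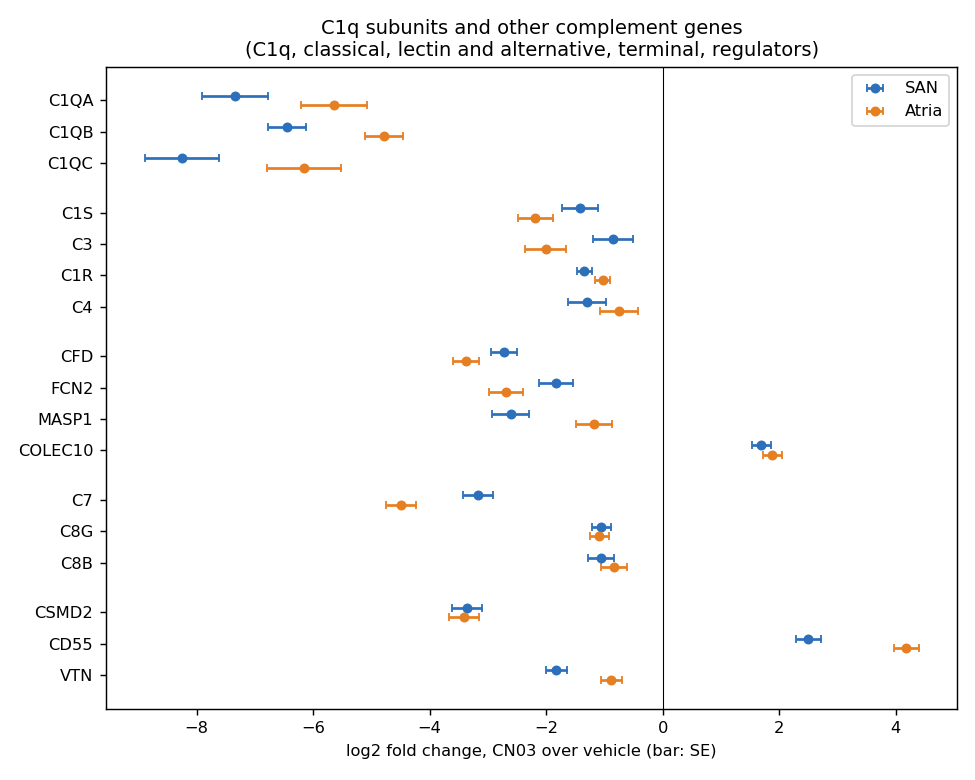
Log2 fold change of CN03 over vehicle with its SE (horizontal axis) for the 3 C1q genes and a selection of other complement genes, in SAN (blue) and atria (orange), grouped from top to bottom as C1q, classical, lectin and alternative, terminal and regulators. The C1q genes lie between -4.78 and -8.25, C7 in atria lies next at -4.49, and CD55 and COLEC10 lie to the right of 0.

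Receptors and relatives of C1q included genes that rose and genes that fell. Of 18 listed receptors for C1q and C3 fragments 9 were measured, with a median log2 fold change of -0.05 in SAN, which was 0.29 after quantile normalization, and -0.08 in atria. ITGA2, the collagen-binding integrin chain that also binds C1q, rose by 3.16 in SAN (adjusted p = 1.13e-11) and 5.02 in atria (adjusted p = 2.34e-15), and ITGB2, the leukocyte integrin chain of complement receptors 3 and 4, fell by 3.82 (adjusted p = 1.06e-05) and by 3.07 (adjusted p = 0.000146). Of 29 genes with a C1q-like globular domain 19 were measured. With CN03, 9 (47.4%) were called lower in each tissue, beside 17.1% of all genes in SAN and 15.6% in atria. Called higher were 3 (15.8%) in SAN and 4 (21.1%) in atria, beside 10.2% and 13.8% of all genes. Among them C1QTNF2 fell by 3.44 in SAN (adjusted p = 6.30e-11) and by 5.24 in atria (adjusted p = 2.55e-14), and EMILIN2, a matrix glycoprotein, rose by 2.17 in both tissues (adjusted p = 6.01e-08 in SAN and 4.93e-08 in atria).

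Most macrophage genes measured in SAN were lower with CN03, with medians far smaller in size than the C1q values. Of 52 listed genes 42 were measured. In SAN 33 (78.6%) were called lower and 1 (2.38%) higher, beside 17.1% and 10.2% of all genes. In atria 22 (52.4%) were called lower and 4 (9.52%) higher, beside 15.6% and 13.8% of all genes. The median log2 fold changes were -1.97 in SAN and -1.37 in atria. With a pseudocount of 1 the C1q values were smaller, at -3.19, -4.53 and -3.33 in SAN and -1.80, -2.80 and -1.77 in atria for C1QA, C1QB and C1QC. The list's medians are given without it, so how far C1q exceeds the list depends on the bottom of the scale. MARCO, a scavenger receptor of macrophages, fell by 5.15 in SAN (SE 0.434, adjusted p = 2.93e-10) and by 6.57 in atria (adjusted p = 2.98e-12). P2RY13, a nucleotide receptor, fell by 4.95 (adjusted p = 1.00e-10) and by 4.29 (adjusted p = 9.07e-10), and LY86, a partner of an innate immune receptor, fell by 4.59 (adjusted p = 2.18e-12) and by 4.62 (adjusted p = 1.14e-12). SPI1, the transcription factor PU.1 of myeloid cells, fell by 2.84 in SAN (adjusted p = 1.36e-10) and by 2.39 in atria (adjusted p = 1.99e-09), and CSF1R, the receptor for macrophage growth factor, fell by 1.84 (adjusted p = 5.15e-07) and by 1.25 (adjusted p = 8.67e-05).

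Other defining leukocyte genes had smaller values or rose. PTPRC, which encodes the pan-leukocyte surface protein CD45, had log2 fold changes of -0.07 in SAN (adjusted p = 0.746) and 0.25 in atria (adjusted p = 0.258), and after quantile normalization 0.47 in SAN (adjusted p = 0.043) and 0.52 in atria (adjusted p = 0.025). MRC1, the mannose receptor, fell by 1.32 in SAN (adjusted p = 4.38e-08) and had -0.45 in atria (adjusted p = 0.0105), and CD74, the class II invariant chain, fell by 1.52 in SAN (adjusted p = 2.90e-08) and had -0.82 in atria (adjusted p = 0.00014). RUNX1, a blood cell transcription factor that other cells also use, rose by 3.00 in SAN (adjusted p = 6.69e-12) and 3.68 in atria (adjusted p = 1.10e-13). No macrophage gene was at the bottom of the scale in all pools of a group.

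The summed linear level of the 42 macrophage genes, given as lowest, median and highest pool, was 1060, 1110 and 1120 in CN03-treated SAN, 2490, 2640 and 3030 in vehicle-treated SAN and 1340, 1440 and 1530 in t0 SAN. In atria it was 1180, 1220 and 1280 with CN03, 1920, 2080 and 2470 with vehicle, and 1120, 1170 and 1380 at t0. CN03-treated pools lay below vehicle-treated pools in both tissues, as for C1q. CN03-treated atria overlapped t0 atria in this sum. Such a sum is weighted to the most abundant genes, and the total linear sums of libraries were larger in CN03-treated atria. The mean log2 value of the list was 1.60 in CN03-treated atria and 2.06 in t0 atria. Counted by gene, 19 of the 42 were called lower and 10 higher in CN03-treated atria than in t0 atria, with a median log2 fold change of -0.76, beside 17.9% and 16.3% of all genes. The part of macrophage number in the C1q values was not tested.

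Culture and tissue gave more calls higher than lower in the list, though most of its genes were not called. With vehicle against t0, 15 of the 42 macrophage genes were called higher and 2 lower in each tissue, where 8.01% of all genes in SAN and 10.1% in atria were called higher and 5.59% and 9.02% lower. The other 25 were not called in either direction. MRC1 rose by 2.55 in SAN (adjusted p = 3.60e-12) and 2.74 in atria (adjusted p = 5.16e-13), whereas CSF1R had -0.40 (adjusted p = 0.18) and -0.76 (adjusted p = 0.0107). PTPRC had -0.87 in SAN (adjusted p = 0.000801) and -0.80 in atria (adjusted p = 0.00136). CD74 had -0.02 (adjusted p = 0.944) and -0.16 (adjusted p = 0.43). For SAN over atria at t0 the list had a median of 0.73 and a highest value of 1.82 for TLR4. At t0, 14 of the 42 (33.3%) were called higher in SAN than in atria, beside 6.86% of all genes. The count was 7 after quantile normalization, 5 with a pseudocount of 1, 9 without SAN t0 pool 2 and 7 without atria t0 pool 4. CSF1R was higher in SAN by 1.02 (adjusted p = 0.00215), SPI1 by 1.24 (adjusted p = 0.000144) and MRC1 by 1.06 (adjusted p = 5.74e-06). PTPRC (0.38, adjusted p = 0.142) and CD74 (0.18, adjusted p = 0.444) were among the 28 not called. All of these values were under the 1.84 to 2.21 of the C1q genes, but TLR4 lay within the SE of C1QA (0.570).

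**Figure D4:**
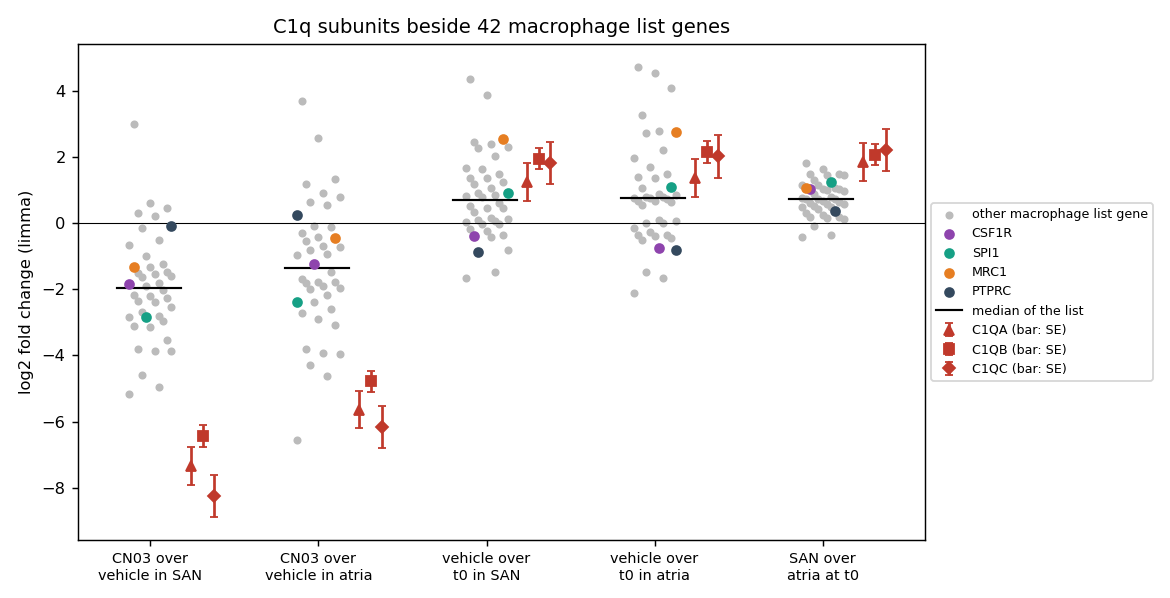
Log2 fold change (vertical axis) of 42 macrophage list genes (circles, 4 of them coloured) with their median (line), and of C1QA, C1QB and C1QC with SE (red symbols), in 5 comparisons. With CN03 the C1q genes lie below the list's median of -1.97 in SAN and -1.37 in atria, and only MARCO in atria lies among them or lower. LY86 in atria, at -4.62, is within the SE of C1QB (-4.78, SE 0.324). The values of C1QA and C1QC with CN03 rest on pools at the bottom of the scale, so their place beside the macrophage genes depends on it.

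Genes that act with macrophages in other ways were also counted. Of 26 genes for uptake of apoptotic cells 25 were measured, with 6 called lower and 3 higher in SAN and 4 lower and 4 higher in atria, shares of 24% and 12% and of 16% and 16% that lie near those of all genes (17.1% lower and 10.2% higher in SAN, 15.6% and 13.8% in atria). TIMD4, a phosphatidylserine receptor of resident macrophages, fell by 2.83 in SAN (adjusted p = 2.01e-06) and by 1.90 in atria (adjusted p = 0.000276), and ITGAV, an integrin chain that many cells carry, rose by 2.46 (adjusted p = 7.18e-15) and 3.08 (adjusted p = 9.19e-17). Of 10 growth factors and ligands for macrophages 7 were measured. Called higher were 4 (57.1%) in SAN and 5 (71.4%) in atria, beside 10.2% and 13.8% of all genes. In atria 1 (14.3%) was called lower, near the 15.6% of all genes. CSF1, the ligand of CSF1R, rose by 1.33 in SAN (adjusted p = 1.18e-08) and 1.79 in atria (adjusted p = 6.26e-11).

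Markers of the other cell types that such tissue can hold were mixed. With CN03 in SAN and atria, the lymphocyte list had 4 and 3 of 11 measured genes called lower, the erythroid and thrombocyte list 2 and 8 of 13, the epicardial and fibroblast list 8 and 9 of 15, the endothelial list 2 and 1 of 19, and the cardiomyocyte list 5 and 4 of 14, beside 17.1% and 15.6% of all genes. In atria 8 of the 19 endothelial genes were called higher, with a median log2 fold change of 0.73, beside 13.8% of all genes, and in SAN 2 were. The cardiomyocyte list had 2 genes called higher in each tissue, 1 after quantile normalization, and each of the other 3 lists had at most 1. The erythroid and thrombocyte count in atria was 4 without CN03 pool 3 or vehicle pool 1 and 5 without CN03 pool 1 or vehicle pool 4, and that in SAN was 4 without CN03 pool 3. BTK, a kinase of B cells and myeloid cells, fell by 2.49 in SAN (adjusted p = 2.79e-12) and by 2.98 in atria (adjusted p = 6.84e-14), and DCN, a fibroblast proteoglycan, fell by 2.16 (adjusted p = 3.18e-11) and by 1.58 (adjusted p = 4.91e-09). Of 12 granulocyte and dendritic genes 4 were measured, of which HPGDS, a prostaglandin synthase, rose by 2.84 in SAN (adjusted p = 6.69e-12) and 3.12 in atria (adjusted p = 7.58e-13), and KIT, the stem cell factor receptor, fell by 1.65 (adjusted p = 2.86e-05) and by 2.05 (adjusted p = 1.39e-06). The part of these cells in the C1q values was not tested.

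The genes whose values were most like the mean of the 3 subunits over the 24 libraries differed with the measure of likeness. By Pearson's r the first 10 held no gene of the macrophage list and were SNED1 (0.982), ADAMTS15 (0.981), CES1L1 (0.976), ASTN2 (0.975) and VLDLR (0.974), followed by FSBP, DMBT1, CES1L2, ADAMTS7 and ACSF2, all of them lower with CN03 in both tissues. By Spearman's rho, 2 of these 10 were again among the first 10, which began with DMBT1 (0.961), CD48 (0.957), CTSS (0.953) and SPI1 (0.950), the last 2 of them from the macrophage list. Over deviations from group means the most like genes were TREM2 (0.883), a lipid receptor of phagocytes, ZP3, LY96, CTSS (0.718), a lysosomal protease of antigen-presenting cells, MLK4, MDGA1, CYBB (0.701), the NADPH oxidase chain of phagocytes, KCTD18, RBPJL and RSFR, and 4 of these 10 were kept by Spearman's rho. The 2 lists by Pearson's r shared no gene. CTSS and RSFR were among the first 10 both over deviations by Pearson's r and over values by Spearman's rho. The deviations include the CN03-treated pools, where C1QA and C1QC reached the bottom of the scale. TREM2 also reached it in CN03-treated atria, and its lowest vehicle-treated atrial pool was at -4.07 (group SD 2.26). How far such low values set its r was not tested.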

How the data were processed

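Illumina stranded, ribosomal RNA-depleted total RNA libraries were sequenced as paired-end reads. The authors quantified them with kallisto and filtered genes with edgeR, and the submitters' notes name GRCg7b. Versions, filter and normalization are not given in the sources used here. The deposited values are log2 expression values per gene symbol. The 1 row without a symbol, 6.58 to 17.9% of a library's linear sum, was left out of every test. Group means were fitted over all 24 libraries with limma 3.58.1 in R 4.3.3 (empirical Bayes with a mean-variance trend, Benjamini-Hochberg adjustment over 12422 genes) and tested on simulated data. The pools are biological replicates per the labels. Same-numbered t0 pools of SAN and atria, which share a pool number, deviated together (r 0.112 to 0.496), as did CN03 and vehicle atria (0.246 to 0.275). The C1q genes and all lists were chosen with earlier results of these data known. Named genes were the subunits, up to 4 per list (10 for macrophages) with the largest mean change with CN03 among those called, CSF1R, SPI1, PTPRC, MRC1, CD74, C1R, C1S and C3, and the 10 most like genes, and the text describes a part of them. A gene that this rule names is not reported here. The neighbours and TLR4 were added after their values were seen. Positions come from the RefSeq gene table of GRCg7b. Alternatives were a pseudocount of 1, a filter on mean log2 above 0, quantile normalization, median centring, a replicate block, the 2 groups alone, no trend and leaving out each library. Python 3.11.15 with matplotlib 3.10.9 made the plots.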

Additional observations from a re-analysis of the deposited data

Results flagged for a closer look

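In 3 of the 18 sets of 4 pools checked for the C1q genes, the highest pool lay apart from the other 3, where chance alone flags about 1 in 20 such sets. The sets are not independent, since the 3 subunits were measured in the same pools, so no excess over that share is read. C1QA in t0 SAN was 2.10 in pool 1, against 1.80 to 1.85 in the other pools. C1QA in t0 atria was 0.938 in pool 2, against -0.33 to -0.19 in the others. C1QB in t0 atria was 1.65 in the same pool 2, against 0.63 to 0.66 in the others. Without that pool the difference of SAN over atria at t0 was 2.14 for C1QA, 2.32 for C1QB and 2.57 for C1QC.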

How the results depend on the processing

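With a pseudocount of 1, CN03 over vehicle was -3.19, -4.53 and -3.33 in SAN and -1.80, -2.80 and -1.77 in atria for C1QA, C1QB and C1QC, CN03 over t0 was -2.13, -2.70 and -1.83 in SAN and -0.95, -1.12 and -0.65 in atria, and 786 genes were called between SAN and atria at t0, against 1208. These folds shrink by construction, since the CN03 values lie below the pseudocount. After quantile normalization, CN03 over vehicle in atria was -4.15 for C1QB, C1QA at t0 was 1.37 (adjusted p = 0.054), 9 other complement genes against 14 were called lower in SAN, and PTPRC was 0.47 in SAN and 0.52 in atria (the cause was not tested). Genes called higher then made up 49.0% of calls for CN03 in SAN, against 37.4%, and 54.3% for SAN over atria at t0, against 70.5%. The filter on mean log2 above 0 removed C1QA and C1QC. With the replicate block, the adjusted p at t0 was 0.0147 for C1QA, 1.94e-05 for C1QB and 0.00834 for C1QC, and no C1q call changed. Leaving out each library, SAN over atria at t0 ranged from 1.72 to 2.14 for C1QA, 1.98 to 2.32 for C1QB and 1.92 to 2.57 for C1QC, with adjusted p up to 0.0394. The likeness over the 16 vehicle and t0 libraries was chosen after seeing the data.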

Other observations

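Over deviations from group means in the 16 vehicle and t0 libraries alone, a choice made after the data were seen, the genes most like the mean of the C1q subunits were LXN (r = 0.913), CTSS (0.910), P2RY6 and TREM2 (0.892). The lowest vehicle-treated atrial pool of TREM2 was at -4.07, against a group mean of -0.77. For the defining genes of the macrophage list the same r was 0.828 for CSF1R, 0.704 for SPI1, 0.575 for CD74, 0.360 for MRC1 and -0.351 for PTPRC. These are descriptions over libraries that share a normalization.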
